A study of Mus musculus with 4 samples.

Results

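Small nuclear, small nucleolar (sno), small Cajal body, Y, 7SK, RNase P, RNase MRP and telomerase RNAs were examined in the left ventricular free wall of 4 mice. They were taken from the gene count table by symbol: names starting Snora, Snord, Scarna, Rnu, Rny or Rn7s, and Rmrp, Rpph1 and Terc. Of 38355 rows, 144 matched, and 29 of these had 10 or more raw counts in at least 2 of the 4 libraries and were analysed. All 29 also passed the filter on low counts of the test across 14189 genes.

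The mice were untreated offspring of the same parents, and each gave 1 library. The 2 transgenic (TG) mice carried VSFP2.3, a voltage-sensitive fluorescent protein aimed at heart muscle cells per the series title, and the 2 wild-type (WT) mice did not. WT 1 and TG 1 were males of 35 weeks, and WT 2 and TG 2 were females of 19 weeks, so sex and age cannot be told apart. The stated purpose was to find out whether the transgene harms the heart. The sources used here do not name the promoter behind the transgene, and the transgene itself was not analysed here.

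These RNAs work in RNA and protein complexes rather than as messages. Box C/D snoRNAs guide methylation of ribosomal RNA and box H/ACA snoRNAs guide its pseudouridylation; most are cut from introns of host genes. U3 acts in the cleavage of the ribosomal RNA precursor, and small Cajal body RNAs guide the same modifications on spliceosomal RNAs. U11 and U12 belong to the minor spliceosome, which removes a rare class of introns. 7SK holds the elongation kinase P-TEFb inactive together with Hexim and Larp7 proteins, a control point studied in cardiac hypertrophy. RNase P trims transfer RNA precursors, RNase MRP processes ribosomal RNA, and Y RNAs bind the Ro60 and La proteins.

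The RNAs whose levels the results turn on are shown first, 5′ to 3′, as DNA letters of the GENCODE vM21 transcripts (build mm10). For Rn7sk, which is 331 bases long, bases 1 to 120 are given, with its GATC letters in capitals. In Rny1 and Rny3 capitals mark the closing run of T, where RNA polymerase III, which makes them, stops.
Rn7sk: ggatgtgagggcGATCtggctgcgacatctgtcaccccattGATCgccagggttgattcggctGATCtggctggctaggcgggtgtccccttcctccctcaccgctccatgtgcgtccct
Rny1: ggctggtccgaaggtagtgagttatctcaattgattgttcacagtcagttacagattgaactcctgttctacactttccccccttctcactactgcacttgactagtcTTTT
Rny3: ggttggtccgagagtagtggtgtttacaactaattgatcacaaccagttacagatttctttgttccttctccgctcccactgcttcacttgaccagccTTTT
In the next pair, capitals mark the C box (TGATGA) and D box (CTGA) letters.
Rnu3a: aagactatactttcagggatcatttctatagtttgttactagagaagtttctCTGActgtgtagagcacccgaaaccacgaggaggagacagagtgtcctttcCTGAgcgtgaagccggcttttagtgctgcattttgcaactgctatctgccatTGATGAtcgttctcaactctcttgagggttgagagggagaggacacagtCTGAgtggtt
Snord17: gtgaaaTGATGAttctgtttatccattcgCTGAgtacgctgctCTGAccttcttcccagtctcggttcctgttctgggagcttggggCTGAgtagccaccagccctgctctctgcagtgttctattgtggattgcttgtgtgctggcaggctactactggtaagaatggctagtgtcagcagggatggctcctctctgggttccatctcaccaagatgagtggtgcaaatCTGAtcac
In the minor spliceosomal RNAs, capitals mark the letters searched as an Sm site, where the ring of Sm proteins sits (ATTTTTG or ATTTTTTG).
Rnu12: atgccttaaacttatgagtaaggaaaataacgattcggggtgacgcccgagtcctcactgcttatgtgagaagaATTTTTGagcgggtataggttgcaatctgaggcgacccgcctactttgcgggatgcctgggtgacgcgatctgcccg
Rnu11: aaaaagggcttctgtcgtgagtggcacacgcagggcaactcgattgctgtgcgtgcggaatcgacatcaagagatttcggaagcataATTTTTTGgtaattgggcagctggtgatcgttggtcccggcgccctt
In the last pair, capitals mark the ACA box, which lies 3 bases from the 3′ end.
Snora73b: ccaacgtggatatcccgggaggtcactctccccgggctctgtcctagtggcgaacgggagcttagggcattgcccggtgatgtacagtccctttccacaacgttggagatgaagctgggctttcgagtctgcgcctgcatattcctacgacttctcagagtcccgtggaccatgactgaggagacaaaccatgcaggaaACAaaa
Snora73a: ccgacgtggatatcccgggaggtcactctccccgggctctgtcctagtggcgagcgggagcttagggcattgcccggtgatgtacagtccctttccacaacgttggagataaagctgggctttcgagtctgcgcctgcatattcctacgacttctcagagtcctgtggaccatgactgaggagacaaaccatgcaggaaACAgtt

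Rn7sk lay at chr9:78175303-78175633, Rny1 at chr6:47788069-47788180 and Rny3 at chr6:47781624-47781725. Rnu3a lay at chr10:40258467-40258680 and Rnu12 at chr15:83149644-83149794. None of these 5 sat inside an intron of another annotated gene on the same strand. The opposite strand was searched for exons only. Rnu11 lay at chr4:132270080-132270213, with an exon of the predicted gene Gm28872 on the opposite strand. Snord17 sat in an intron of Snx5 at chr2:144265979-144266216. Snora73b and Snora73a sat in introns of Rcc1 at chr4:132352322-132352526 and chr4:132352775-132352979, and an exon of the host RNA Snhg3 also covered Snora73a. Both overlapped an exon of the predicted gene Gm17300 on the opposite strand. The annotation holds 2 Rnu3a entries at 1 place, and likewise 2 Rmrp entries.

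Motifs were searched on the transcript strand only, and different motifs may overlap. The letters TGATGA stood in 56 of the 79 matched C/D snoRNAs (70.9%), in 1 of 39 H/ACA snoRNAs and in 64 of all 144 (44.4%). The 39 include Rnu73b, which was placed there by its name. It is 71 bases long and shares the host Rps3a1 with the C/D snoRNA Snord73a. It is likely a C/D snoRNA, so the totals of both classes are uncertain by this RNA. CTGA stood in 79 of 79 C/D snoRNAs, and in 122 of 144 (84.7%), so it separates the classes poorly. The letters ACA exactly 3 bases from the 3′ end stood in 31 of 39 H/ACA snoRNAs (79.5%), in 0 of 79 C/D snoRNAs and in 34 of 144 (23.6%). The Sm site letters stood in 4 of 9 spliceosomal RNAs and in 6 of 144 (4.17%). The final TTT stood in both Y RNAs, in Rn7sk and in 4 of 144 in all (2.78%), and GATC in 44 of 144 (30.6%). A match describes these letters and does not show a working site.

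Snora73b and Snora73a were both 205 bases long and differed at 7 positions, with 96.6% identity. Written with the Snora73b base first and counted from the 5′ end, the differences were A3G, A54G, G111A, C164T, A203G, A204T and A205T. Their longest identical run was 56 bases, so counts of the pair may have been divided unevenly and are uncertain. Of the 29 RNAs, 8 had a near copy in another annotated gene (at least 90% identity over at least 80% of the length): Snora21, Snora68, Snora73a, Snora73b, Rny1, Scarna17, Rnu11 and Rnu12. Outside the Snora73 pair, those copies held 0 to 5 counts in any library.

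The libraries held 14158440 to 16762713 gene counts and 18334 to 19001 genes with a count. The tissue carried the markers of its label: all 8 ventricular cardiomyocyte markers stood at 3440 CPM or more in every library, with summed levels of 62400 to 80400 CPM. WT 2 stood apart: Yam1 had 685444 counts there against 2094 to 7376 elsewhere, Lars2 had 137304 against 314 to 780, and the atrial light chain Myl4 stood at 75.5 CPM against 0.711 to 1.15 CPM; Myl7 and Sln were also highest there, and both had no count in TG 1. The natriuretic peptide gene Nppa, the other atrial marker, went the other way, at 3700, 1060, 1550 and 4220 CPM in WT 1, WT 2, TG 1 and TG 2, so that the summed atrial level was lowest in WT 2 (1220 CPM against 1560 to 4220). WT 1 had the highest summed erythroid markers, 717 CPM against 142 to 235. WT 1 and TG 2 shared higher summed leukocyte markers, 760 and 642 CPM against 106 in WT 2 and 103 in TG 1, with none of the 6 markers at 0 in any library. Endothelial markers (802 to 1010 CPM), fibroblast markers (1420 to 1490 CPM) and smooth muscle markers (176 to 264 CPM) had narrower ranges. Over all genes tested, 63.3% of the variance of log2 CPM between the libraries set WT 1 and TG 2 against WT 2 and TG 1, across both genotype and pair. Whether every genotype label is right was not tested, and each TG against WT value rests on the labels. CPM is a count divided by the library size in megareads, here scaled by trimmed means (TMM). In such bulk tissue, fewer cells of a type and less RNA per cell cannot be told apart.

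The classes were caught very unevenly. All of 7SK (1 of 1), RNase P and MRP RNA (2 of 2), U3 (1 of 1) and Y RNA (2 of 2) were analysed, and 7 of 9 small Cajal body RNAs. Of the H/ACA snoRNAs 9 of 39 passed, and of the C/D snoRNAs, most of which are shorter, 5 of 79. The 39 include Rnu73b, likely a C/D snoRNA, which did not pass. Only Rnu11 and Rnu12 passed among 9 spliceosomal RNAs. The matched rows of the major spliceosome held 0 to 4 counts in any library: Rnu1a1 had 2, 4, 2 and 0 counts in WT 1, WT 2, TG 1 and TG 2, Rnu2-10 had 4, 2, 1 and 1, and Rnu6 and Rnu1b1 had 0 in all. U7 had 0 counts in all libraries, and no row of the 7SL type matched. This holds for rows matched by name: 8 tested genes with a small nuclear RNA biotype carry predicted-gene names, such as Gm24265 at 153, 109, 77.0 and 102 CPM and Gm24407 at 98.2, 87.0, 49.4 and 69.5 CPM, and which RNA they encode is not given in the table.

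Of the 115 RNAs not analysed, 49 had no count in any library, and the highest single count was 17. The telomerase RNA Terc, with 7, 10, 2 and 9 counts, fell just short of the rule, as did Snora31 with 8, 17, 6 and 6 and Scarna3b with 9, 10, 7 and 6. Just inside it were Snord89 with 12, 12, 7 and 5 counts and Scarna17 with 4, 22, 10 and 5.

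Length went with detection. Of 72 matched RNAs under 100 bases 3 were analysed (4.17%), of 51 between 100 and 149 bases 12 (23.5%), and of 21 of 150 bases or more 14 (66.7%). The median length was 148 bases among those analysed and 90 among the rest. Across the 29, length correlated with the log2 of mean CPM per kilobase (Pearson 0.657, Spearman 0.585), as a description over RNAs that share 4 libraries. Between length and the TG to WT log2 fold change the values were 0.171 and 0.310. Whether the library kit recovers short RNAs less well was not tested.

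**Figure D1:**
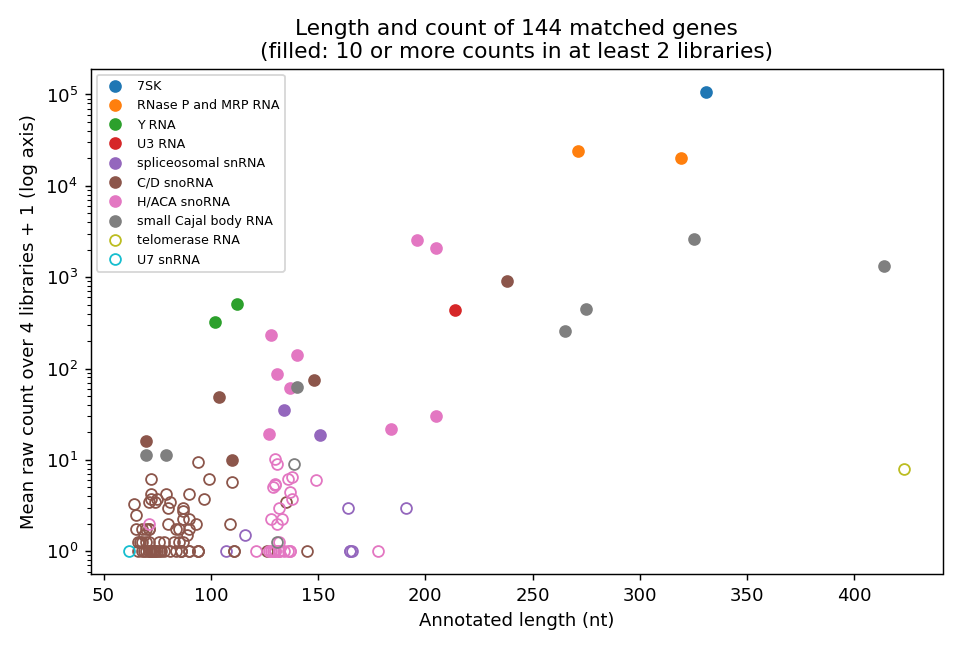
Annotated length in bases (x axis) against mean raw count over the 4 libraries plus 1 (y axis, log scale) for the 144 matched RNAs, coloured by class. Filled points are the 29 analysed RNAs, 14 of which were at least 150 bases long, and open points are the 115 that were not analysed.

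7SK was the most abundant of them. Per length, Rn7sk stood at a mean of 21177 CPM per kilobase, followed by Rmrp at 5721 and Rpph1 at 4079. Snora74a reached 846 CPM per kilobase, Snora73b 655, Scarna10 529, Rny1 291 and Snord17 247, and Snord89 was lowest at 5.28. Together the 29 RNAs took 1.15% of counts in WT 1, 1.16% in WT 2, 0.853% in TG 1 and 1.10% in TG 2. The exact (Clopper-Pearson) 95% interval for TG 1, the lowest, was 0.848% to 0.858%. It covers counting error only.

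**Figure D2:**
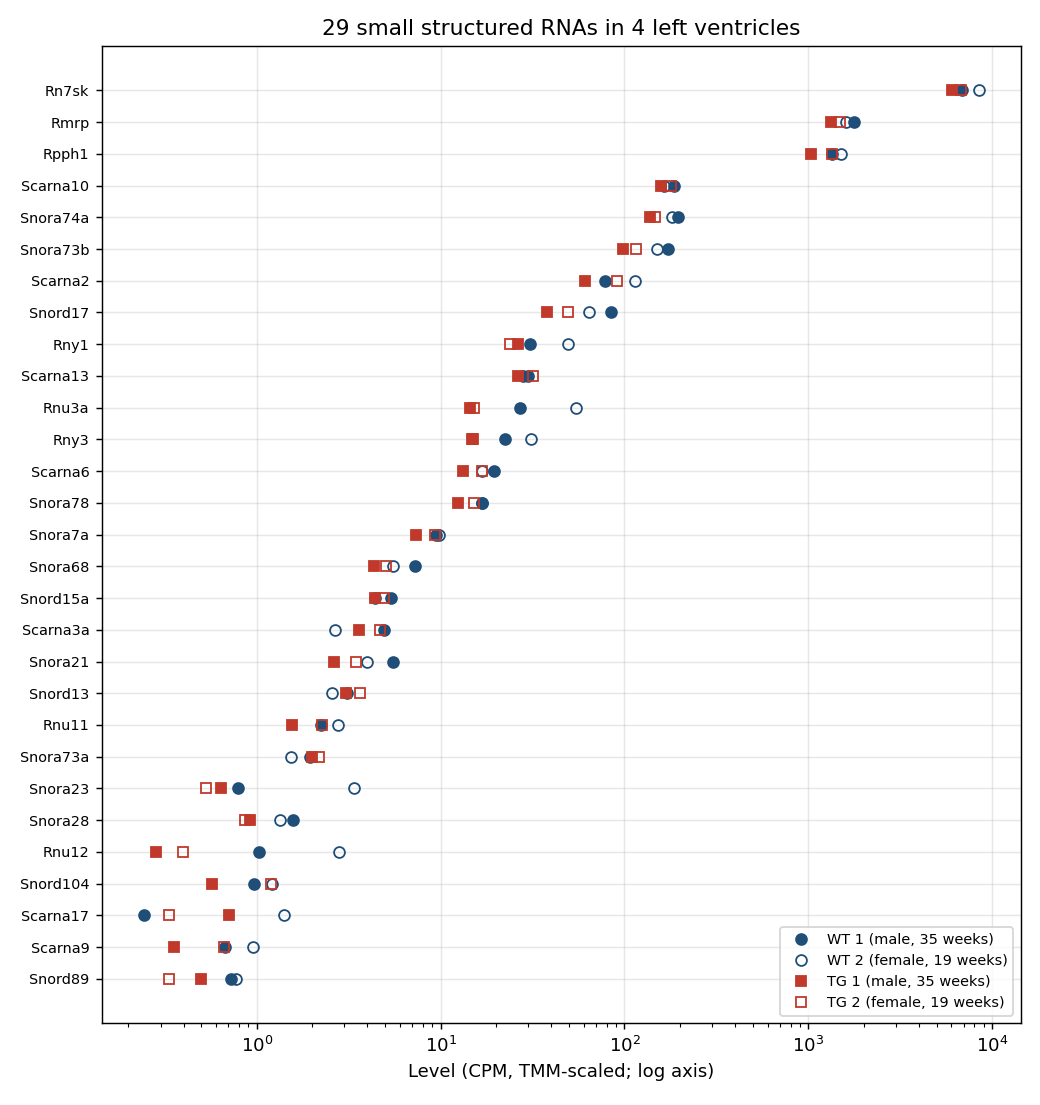
Level of each of the 29 RNAs in each library, in TMM-scaled CPM on a log axis, ordered by mean level. Circles are WT and squares TG, filled for the 35-week males and open for the 19-week females; the 2 squares lie to the left of the 2 circles for 18 of the 29 RNAs.

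TG was compared with WT to ask whether these RNAs differ with the transgene. No single RNA passed the test, but most values lay on the lower side in TG: 25 of 29 fitted log2 fold changes were below 0 (86.2%, against 52.5% of all 14189 genes tested). In 18 of 29 both TG libraries lay below both WT libraries (62.1%, against 10.7% of all genes). Among these are Rnu12, Snora23 and Snord89, which met the rule of 10 counts through the WT libraries alone and so had to lie lower in TG; without them the counts were 22 and 15 of 26. In 1, Snora73a, both TG libraries lay above (3.45%, against 10.3%). The median log2 fold change was -0.38, and -0.01 over all genes tested. TG lay below WT within both the male and the female pair for 22 of 29 (75.9%, against 18.6% of all genes). Without Rnu12, Snora23 and Snord89 this was 19 of 26, and the median log2 fold change was -0.32.

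By edgeR's quasi-likelihood test, 0 of 29 passed an adjusted p of 0.05, as did 0% of all genes tested, and every adjusted p was 1.00. At an unadjusted p under 0.05 there were 6 of 29 (20.7%, against 0.698% of all genes): Rny3, Rnu3a, Rnu12, Snora73b, Snord17 and Snora74a. Without Rnu12, Snora23 and Snord89 there were 5 of 26. DESeq2 also called 0 of the 29, with 3 genes called in all (0.0211%), and limma-voom called 0. The values below are therefore levels and fitted differences, none of which passed the test. The median of the 29 was -0.18 without TG 1, with 22 of them below 0 and 0 at an unadjusted p under 0.05, and -0.29 without WT 2, with 26 below 0.

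With unscaled gene totals in place of TMM, both TG libraries lay below both WT libraries for 13 of the 29 rather than 18. Of the 15 RNAs with a mean of 100 counts or more, 14 had a log2 fold change below 0, with a median of -0.29, and in 11 both TG libraries lay below both WT libraries. The 17 that overlap no exon of another gene include Rnu12, Snora23 and Snord89, whose direction the count rule fixed. Of these 17, 16 lay below 0, and in 12 the groups did not overlap with TG lower, against 10.7% of all genes. The 29 were not alone in this: of 57 other tested genes with a small RNA biotype, 48 lay below 0 (84.2%), with a median of -0.39. Among other tested genes with exons of up to 500 bases in all, 59.9% of 309 lay below 0, and among longer genes 52.2% of 13732.

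**Figure D3:**
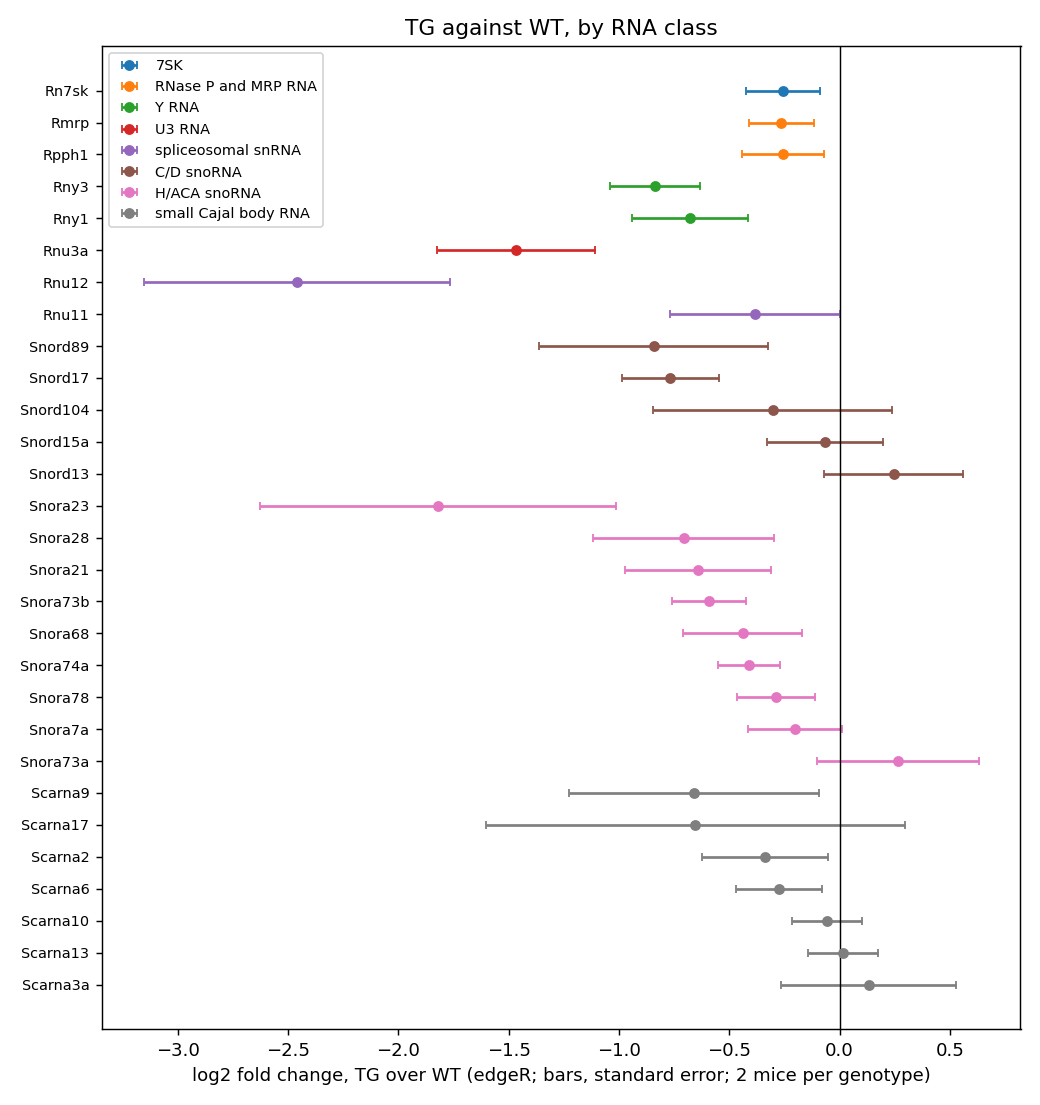
Fitted log2 fold change of TG over WT (x axis) for each of the 29 RNAs, grouped and coloured by class. Bars are 1 standard error, derived from the edgeR test on 2 mice per genotype. The points of 25 RNAs lie left of 0, from Rnu12 at -2.46 to Snora73a at 0.26 on the right.

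The 7SK RNA, the brake on P-TEFb, stood at 6810 CPM in WT 1, 8450 in WT 2, 6010 in TG 1 and 6760 in TG 2. Both TG libraries were below both WT libraries, TG 2 only just below WT 1. The log2 fold change was -0.26 ± 0.17 (standard error, SE, as in all values that follow), and -0.09 without WT 2. The proteins that work with it did not share its side. Of 9 tested genes of 7SK and P-TEFb, 2 had a log2 fold change below 0, against 52.5% of all genes. Larp7, which binds the 7SK end, was at 0.18 ± 0.17, and Hexim1, the inhibitor, at 0.11 ± 0.16. None of the 9 passed the test in either direction.

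The catalytic RNAs were the next most abundant. Rmrp, the RNA of RNase MRP, stood at 1780 CPM in WT 1, 1600 in WT 2, 1330 in TG 1 and 1490 in TG 2. Both TG libraries were below both WT libraries, with a log2 fold change of -0.26 ± 0.15. Rpph1, the RNA of RNase P, stood at 1340, 1500, 1030 and 1340 CPM in the same order. Here only TG 1 was low and the groups overlapped, and the log2 fold change of -0.26 ± 0.18 was -0.08 without TG 1. Rpph1 shares its place with an exon of Ccnb1ip1 on the same strand, and Ccdc107 runs opposite Rmrp, so reads of these neighbours may be mixed in. Of 11 tested protein genes of the 2 enzymes, 8 lay below 0, against 52.5% of all genes. Their median was -0.03, and 0 passed.

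Both Y RNAs were lower in the TG libraries. Rny1 stood at 30.5 CPM in WT 1, 49.6 in WT 2, 26.2 in TG 1 and 23.9 in TG 2, and Rny3 at 22.5, 30.9, 14.9 and 15.0. The TG values of Rny3 were nearly equal to each other and below both WT values. The log2 fold change was -0.84 ± 0.20 for Rny3 and -0.68 ± 0.26 for Rny1. Without WT 2, the library that stood apart and was highest for both, these were -0.59 and -0.28. The Y RNA proteins showed no such difference: Trove2, which encodes Ro60, was at 0.10 ± 0.21 and Ssb, which encodes La, at -0.06 ± 0.14.

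U3 showed a wide difference. Rnu3a had 445 counts in WT 1, 854 in WT 2, 202 in TG 1 and 228 in TG 2, or 27.0, 54.6, 14.4 and 15.1 CPM. The TG libraries lay close together, and the WT libraries differed from each other by more than WT 1 differed from TG. The log2 fold change was -1.47 ± 0.36, and -0.87 without WT 2.

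U12, the branch-site RNA of the minor spliceosome, had the lowest log2 fold change of the 29, but it was analysed through its 2 WT libraries alone, so its direction is no finding. Rnu12 had 17 counts in WT 1, 44 in WT 2, 4 in TG 1 and 6 in TG 2, or 1.03, 2.81, 0.284 and 0.398 CPM. Both TG libraries were low, and so few counts leave the size uncertain: the log2 fold change was -2.46 ± 0.69, and -1.57 without WT 2. U11, its partner at the 5′ splice site, was counted at 37, 43, 22 and 34 in Rnu11, or 2.25, 2.75, 1.56 and 2.26 CPM. Its groups overlapped, and its log2 fold change of -0.38 ± 0.39 was smaller than its error, from -0.14 without TG 1 to -0.67 without TG 2. Of 7 tested U11 and U12 protein genes, 5 lay below 0 (median -0.10), against 52.5% of all genes. Rnpc3, which bridges the 2 RNAs, was at -0.49 ± 0.33, and 0 of the 7 passed.

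Among C/D snoRNAs, Snord17 was far the most abundant and the one with separate groups at a useful depth. It had 1389 counts in WT 1, 999 in WT 2, 532 in TG 1 and 743 in TG 2, or 84.4, 63.8, 37.8 and 49.3 CPM. Both TG libraries lay below both WT libraries, and here WT 1 rather than WT 2 was the highest. The log2 fold change was -0.77 ± 0.22, from -0.55 without WT 1 to -0.97 without TG 2. Snord89 was at 0.729, 0.767, 0.497 and 0.332 CPM, at -0.84 ± 0.52 from 5 to 12 counts a library. Only its WT libraries reached 10 counts, which fixes that direction.

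The other named C/D snoRNAs did not separate the groups. Snord15a stood at 5.34, 4.41, 4.41 and 4.91 CPM in WT 1, WT 2, TG 1 and TG 2, with a log2 fold change of -0.07 ± 0.26. Snord13, also called U13, acts on the small ribosomal subunit RNA and lies in no host gene. It stood at 3.10, 2.56, 3.06 and 3.65 CPM, with TG 2 highest, at 0.25 ± 0.31. The summed C/D level was 83.6 ± 15.4 CPM (SD, n = 2) in WT and 52.9 ± 9.2 in TG, mostly Snord17.

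Among H/ACA snoRNAs, both TG libraries lay below both WT libraries in 8 of 9, against 10.7% of all genes. The 8 include Snora23, whose direction the count rule fixed. Snora74a, the most abundant, stood at 196 CPM in WT 1, 182 in WT 2, 137 in TG 1 and 147 in TG 2. The TG libraries were low and close together, and the log2 fold change was -0.41 ± 0.14, from -0.46 to -0.35 with any 1 library left out. It overlaps exons of the predicted genes Gm49347 and AC121821.1 on the same strand, so its reads may include theirs. Snora73b, a form of the U17 RNA needed for processing of the ribosomal RNA precursor, stood at 173, 150, 97.9 and 116 CPM. TG lay below WT at -0.59 ± 0.17, from -0.72 to -0.47 with any 1 library left out.

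Its near twin did not follow. Snora73a had 32, 24, 28 and 33 counts, or 1.94, 1.53, 1.99 and 2.19 CPM, and was the 1 RNA of the 29 with both TG libraries above both WT libraries, by a small margin over WT 1. Its log2 fold change was 0.26 ± 0.37, which is smaller than its error. The 7 differing bases shown above are all that tells reads of the 2 apart within the RNA, and the difference between the pair was not tested.

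Snora78 stood at 16.8 CPM in WT 1, 16.7 in WT 2, 12.4 in TG 1 and 15.1 in TG 2, with both TG libraries lower, at -0.29 ± 0.18, or -0.15 without TG 1. Snora23 stood at 0.790 CPM in WT 1, 3.39 in WT 2, 0.639 in TG 1 and 0.531 in TG 2, from 8 to 53 counts. Only the WT libraries reached 10 counts, which fixes its direction, and its value came mostly from WT 2: the log2 fold change of -1.82 ± 0.81 was -0.43 without that library. Summed H/ACA levels were 393 ± 27.7 CPM (SD, n = 2) in WT and 283 ± 24.3 in TG.

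Of 7 small Cajal body RNAs, 5 had a log2 fold change below 0 (median -0.27), against 52.5% of all genes tested. In 2, Scarna6 and Scarna9, both TG libraries lay below both WT libraries, against 10.7% of all genes. Scarna10, the most abundant, stood at 187 CPM in WT 1, 164 in WT 2, 158 in TG 1 and 179 in TG 2, with overlapping groups and a log2 fold change of -0.06 ± 0.16. Scarna13 stood at 29.8, 28.1, 26.5 and 32.0 CPM, at 0.02 ± 0.16. Scarna2, which has no host gene, stood at 78.1, 114, 61.1 and 90.8 CPM, at -0.34 ± 0.28, with both females above both males. Leaving out 1 library moved it from -0.04 (without WT 2) to -0.65 (without TG 2). Scarna3a stood at 4.92, 2.68, 3.62 and 4.71 CPM, at 0.13 ± 0.40. Scarna13 and Scarna3a each overlap an annotated microRNA on the same strand. None of these 4 separated the genotypes. The SE was larger than the size of the log2 fold change for Scarna10, Scarna13 and Scarna3a. The sign of Scarna2 is not settled either (edgeR unadjusted p = 0.289).

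The other 8 analysed RNAs were Snora21, Snora28, Snora68, Snora7a, Snord104, Scarna6, Scarna9 and Scarna17. All 8 had a log2 fold change below 0, against 52.5% of all genes tested, from -0.71 to -0.20 with a median of -0.54. In 6, against 10.7% of all genes, both TG libraries lay below both WT libraries. The exceptions were Snord104 and Scarna17, both counted at or under 22 reads in every library.

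Summed over all 29 RNAs, the level was 10837 CPM in WT 1, 12468 in WT 2, 9006 in TG 1 and 10334 in TG 2. Both TG libraries were lower, the TG mean by 17.0%, and 7SK made up most of the sum. The log2 difference of -0.27 was -0.16 without WT 2 and -0.17 without TG 1. A two-sided exact permutation test over the libraries gave p = 0.333, the smallest that 2 against 2 can give. The same p was found for each class sum but that of small Cajal body RNAs (0.667), with Benjamini-Hochberg values of 0.381 and 0.667. The Y RNA sum was 66.8 ± 19.5 CPM (SD, n = 2) in WT and 40.0 ± 1.6 in TG, or a log2 difference of -0.74 that was -0.41 without WT 2, and the small Cajal body sum was 324 ± 5.4 and 294 ± 43.1.

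The pairs were then compared, since each holds a TG and a WT mouse of 1 sex and age. In the male pair 27 of 29 RNAs were lower in TG, with a median log2 ratio of -0.44, and in the female pair 23 of 29, with a median of -0.27. Without Rnu12, Snora23 and Snord89, whose direction the count rule fixed, these were 24 and 20 of 26, with medians of -0.43 and -0.17. Over all genes tested the medians were -0.005 and -0.009, with 7169 and 7284 of 14189 lower in TG. Snord17 was lower by more in the males (-1.16 against -0.37), and Rnu3a by more in the females (-1.84 against -0.91). Scarna17 was the 1 RNA higher in TG in the males (1.17) and lower in the females (-1.73), while Scarna3a was lower in the males (-0.43) and higher in the females (0.78).

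A test of WT 2 and TG 1 against WT 1 and TG 2, which asks whether the TG to WT ratio differs between the pairs, called 0 of the 29 by edgeR and 386 of all genes (2.72%). At an unadjusted edgeR p under 0.05 there was 1 of 29, against 2303 of all 14189 genes tested. This was Scarna17, with an adjusted p of 0.188 from edgeR, and DESeq2 and limma-voom also called 0 of the 29. The leukocyte markers above divide the libraries along the same line, and their part in this was not tested. Of the variance of log2 CPM between the 4 libraries, pooled over the 29, 58.0% lay between the genotypes, 17.1% between the pairs and 24.8% in this contrast. Over all genes tested these were 12.8%, 23.9% and 63.3%. The 29 include Rnu12, Snora23 and Snord89, whose lower TG values the count rule fixed. The shares without these RNAs were not computed.

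**Figure D4:**
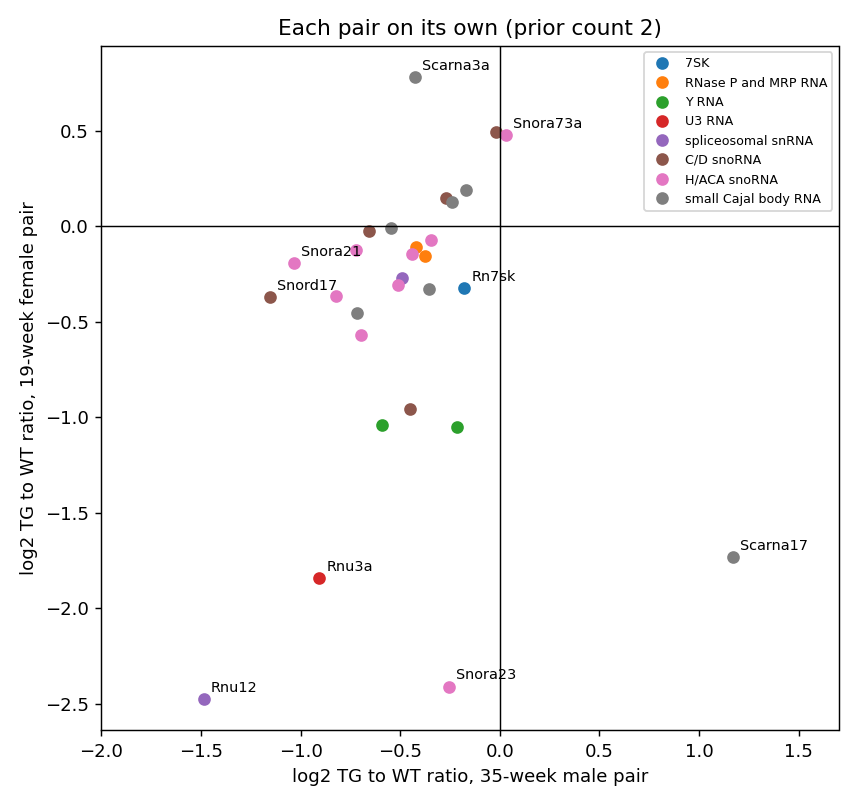
Log2 TG to WT ratio in the 35-week male pair (x axis) against that in the 19-week female pair (y axis) for the 29 RNAs, coloured by class, with a prior count of 2. Of these, 22 lie in the lower left field, lower in TG in both pairs, and Scarna17 lies at the lower right.

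The 35-week males and 19-week females were compared in the same libraries. By edgeR 0 of 29 passed, against 4 of all genes (0.0282%), and DESeq2 and limma-voom also called 0 of the 29. At an unadjusted edgeR p under 0.05 there was 1 of 29, against 513 of all 14189 genes tested. This was Scarna2, at a log2 fold change of -0.56 ± 0.20 and an edgeR adjusted p of 1.00. The median was -0.09, and 12 of 29 were higher in the males. RNAs without a host gene were mostly lower in the males: 1 of 12 was higher, Rmrp, with a median of -0.38, while 11 of the 17 hosted RNAs were higher, with a median of 0.03. This division was made after the values were seen and has no test. Without WT 2 the median of the 29 was -0.01.

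Host genes gave a further comparison, as an intronic RNA is cut from the transcript of its host. Where several genes on the same strand enclosed an RNA, the longest protein-coding one, if any, was taken as its host. Snora73a and Snora73b were thus set beside Rcc1, at -0.17, and not beside Snhg3, at -0.34. For 14 intronic RNAs the host was tested, with 13 hosts in all. Snora74a, Snora78 and Scarna13 are left out, as their hosts Gm28285, Snhg9 and Snhg10 were not tested. Host log2 fold changes ran from -0.21 to 0.19 with a median of -0.06, while those of the intronic RNAs had a median of -0.52, and in 11 of 14 the RNA lay below its host. Only Rps3, host of Snord15a, had both TG libraries below both WT libraries. Snord17 was at -0.77 and its host Snx5, a sorting nexin, at -0.04. Snora21 was at -0.64 and Rpl23, a ribosomal protein gene, at 0.03. Snora23 was at -1.82 and Ipo7, a nuclear import receptor, at 0.13, but the count rule fixed the direction of Snora23. Snora23 and Snord89, fixed in the same way, are both among the 11 RNAs below their host. The count and the median without them were not computed.

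Across these 14, the log2 fold changes of RNA and host had a Pearson correlation of -0.303 and a Spearman correlation of -0.167, as a description over RNAs from the same 4 libraries. For the 7 that overlap no exon of any other gene the values were -0.593 and -0.179. Both sets hold Snora23 and Snord89, with their direction fixed by the count rule, and correlations without them were not computed. Snora28, Snora68, Snora7a and Scarna10 overlap an exon of their own host on the same strand, so host reads may be mixed into their counts.

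**Figure D5:**
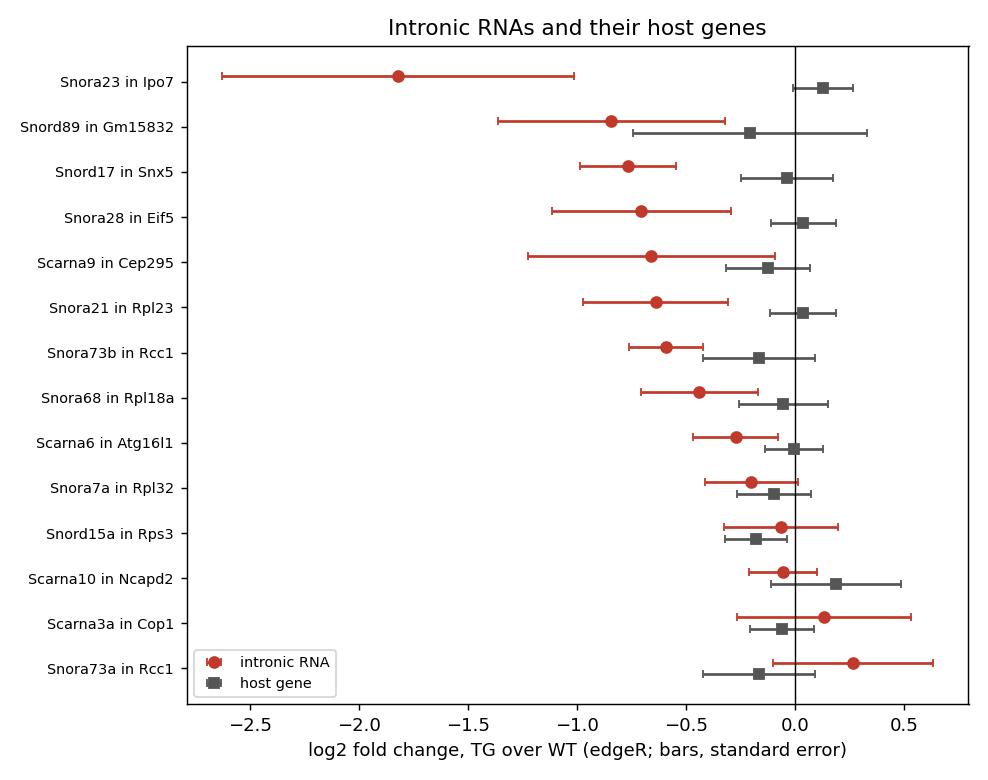
Log2 fold change of TG over WT (x axis) for 14 intronic RNAs (circles) and their host genes (squares), each row 1 RNA and its host, with bars of 1 standard error. The squares lie between -0.21 and 0.19, and the circle lies left of its square in 11 of 14 rows. These 11 include Snora23 and Snord89, whose direction the count rule fixed.

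The protein partners and the genes that make and mature these RNAs were read from the same fit. Of 123 tested genes on 12 lists, 76 lay below 0 (61.8%, against 52.5% of all genes tested), with a median of -0.05. The 123 include 9 host genes that make no protein, all 9 below 0. By edgeR 0 passed the test in any of the 3 comparisons. For TG against WT 0 had an unadjusted p under 0.05, against 0.698% of all genes. Of 8 C/D snoRNP genes 6 lay below 0 (median -0.17), with Nop56, a core protein, at -0.27 ± 0.26 and Nop58 at 0.02 ± 0.18. Of 6 H/ACA snoRNP genes 4 lay below 0 (median -0.07), while the pseudouridine synthase gene Dkc1 was at 0.26 ± 0.16. Of 16 Sm and LSm genes 10 lay below 0 (median -0.07), and of 19 genes of U1, U2, U4, U5 and U6 proteins 8 did (median 0.03).

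Of 29 genes of transcription and maturation, such as the SNAPc and Integrator complexes, 19 lay below 0 (median -0.07), against 52.5% of all genes. SRP proteins had 3 of 5 below 0 and telomerase proteins 1 of 2. Of the host genes that make no protein, 9 of 9 lay below 0, with a median of -0.34, and in 5 both TG libraries lay below both WT libraries. Of 378 tested lincRNA, antisense and processed transcripts 59.0% lay below 0, and in 11.9% the groups lay apart in this way, as in 10.7% of all genes. Gas5, which carries several C/D snoRNAs, stood at 25.6 CPM in WT 1, 34.8 in WT 2, 24.2 in TG 1 and 20.8 in TG 2, at -0.42 ± 0.21. Snhg4 was at -0.50 ± 0.28 and Snhg1 at -0.32 ± 0.20. None of the 9 passed the test.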

How the data were processed

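Left ventricles of 2 TG and 2 WT mice were used. Total RNA was extracted with the NucleoSpin RNA kit and made into TruSeq Stranded Total RNA libraries for the HiSeq2000, per the labels' protocols. The authors deposited raw read counts per Ensembl gene, which are the values used here; their normalized table was not used here. Per the submitters' processing notes, the tools were HTSeq 0.6.1, STAR 2.3.0, DESeq, CASAVA 1.8.2 and FastQC 0.10.0, and the build was mm10. The sources used here do not give the annotation release, the strand setting of the counting or the handling of reads that map to several places. Near-identical RNAs and RNAs that overlap exons of other genes are therefore uncertain.

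Total counts per library were 15498935 (WT 1), 16762713 (WT 2), 14860759 (TG 1) and 14158440 (TG 2). The filter was filterByExpr of edgeR 4.0.16 (in R 4.3.3) at a minimum count of 10. Counts were scaled by TMM and tested by quasi-likelihood, with Benjamini-Hochberg adjustment over all 14189 genes and a threshold of 0.05. The SE was the size of the log2 fold change divided by the square root of the F statistic of this test. Samples were grouped by the genotype label, or by sex and age. The third test had the interaction as its only term, because a full model leaves no residual degrees of freedom. DESeq2 1.42.0, limma-voom (limma 3.58.1), other scalings and filters, a replicate block and leaving out each library were tried as alternatives. The edgeR script was tested on simulated data. With 2 mice per genotype, p-values of TG against WT rest on the spread within a genotype. Those 2 mice differ in sex and age, so this spread includes both. The quasi-likelihood test also draws its estimate of spread from all genes tested.

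Positions, lengths, hosts and sequences came from GENCODE vM21, matched by Ensembl identifier. Near copies were sought with BLAST among its transcripts. Per-pair log2 ratios used a prior count of 2. The RNAs, gene lists and naming rule were chosen with earlier results of these data known. Named were, in each class, the 3 of highest mean CPM (all where a class had 4 or fewer), any RNA past the threshold, the 5 with the largest fitted change in each direction, and Rny3, Rnu3a, Rnu12 and Snora73b. Every analysed RNA outside this rule is named once in the report.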

Additional observations from a re-analysis of the deposited data

How the results depend on the processing

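With 2 mice per genotype and a library that stood apart, these data limit single RNAs to large differences, and RNAs with few counts are least certain. No RNA was called for TG against WT under any alternative run. All 168 values of the 21 named RNAs under alternatives other than leaving out a library kept their direction, as did 76 of 84 with a library left out.

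Leaving out a library turned the direction of 4 named RNAs: Snord15a ranged from -0.195 to 0.0805 on the log2 scale, Scarna13 from -0.13 to 0.15, Scarna3a from -0.24 to 0.64 and Scarna10 from -0.148 to 0.0438. The small Cajal body sum ranged from -0.297 to 0.00287, turning without TG 1. The median of the 29 for TG against WT ranged from -0.55 to -0.18, for males against females from -0.36 to -0.005, and for the male against the female pair from -0.74 to 0.17, turning without TG 1.

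Over all genes, the number called for TG against WT was 0, but 3 by DESeq2, and 0 to 8 with a library left out, the 8 without WT 1. For males against females it was 4, but 7 with no filter, 33 by DESeq2, 0 with genotype as a block and 0 to 9 with a library left out: 0 without WT 1, WT 2 or TG 1 and 9 without TG 2. For the male against the female pair it was 386, but 908 with no filter, 703 by DESeq2 and 44 to 366 with a library left out, with 44 without WT 1 and 110 without TG 2. The cause of these differences was not tested. RNAs with both TG libraries below both WT libraries numbered 18, 13 with unscaled totals and 11 among those with a mean of 100 counts or more, a smaller set, and 15 without Rnu12, Snora23 and Snord89; these alternatives were chosen after seeing the data.

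The labels give the genotypes the same replicate numbers, which stand for sex and age. Deviations of same-numbered libraries from their genotype means correlated at -0.449 over all genes, so WT 1 lay nearer TG 2 and WT 2 nearer TG 1; the cause, a mix-up of labels included, was not tested. With the number as a replicate block, 0 genes were called, 0 of the 29, and their median was -0.38. At an unadjusted p under 0.05 there were 3 of the 29 in place of 6, and 61 of all genes in place of 99. With the numbers crossed, an alternative also chosen after seeing the data, 0 genes and 0 of the 29 were called. Under an unadjusted p of 0.05 were 8 of the 29 and 303 of all genes. Summing a class without its most abundant RNA gave no value for 7SK and U3, which have 1 RNA each.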
